A study of Homo sapiens with 6 samples.

Results

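The IGF2BP3 clusters examined here lay in the 5′ untranslated regions (5′UTRs) of mRNAs, the stretch between the cap and the start codon. A cluster was taken when it overlapped a 5′UTR of a protein-coding transcript of GENCODE release 44 on the same strand, with a minimum overlap of 1 nt, and touched no coding sequence (CDS) and no 3′UTR of any transcript on that strand. This left 975 of the 244620 clusters of 5 IGF2BP3 libraries (0.399%). A further 2326 clusters touched both a 5′UTR and a CDS and 113 touched a 5′UTR and a 3′UTR but no CDS, and the rule left them out, so that clusters spanning a start codon are not described here. Of the 975 clusters, 786 (80.6%) lay on the 5′UTR of the gene's canonical transcript, 880 (90.3%) lay wholly inside a 5′UTR, 68 reached beyond annotated exons and 43 overlapped an exon of a non-coding gene.

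IGF2BP3 is an oncofetal RNA-binding protein with RRM and KH domains that binds mRNAs mainly in their 3′UTRs and is known for effects on their stability, localization and translation. The 5′UTR is scanned by the small ribosomal subunit on its way to the start codon, and upstream open reading frames, structured elements and the pyrimidine-rich cap-proximal tract of ribosomal protein mRNAs (the TOP motif) are among the elements known to set how often an mRNA is translated.

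The libraries were made by infrared PAR-CLIP from HCT116, a line of human colorectal carcinoma cells that here carried a Tet-OsTIR1-PURO insertion, after labeling with 100 µM 4-thiouridine (4sU) for 15 h. Crosslinked 4sU appears as a T-to-C change in the reads, and PARalyzer groups such reads into clusters. Anti-IGF2BP3 was used after digestion with RNase I at 0.05/0.05, 0.1/0.025 or 0.05/0.025 U/µL (in-lysate/on-beads) or with RNase T1 (1/1 or 0.25/0.25 U/µL). The control IgG library had the RNase I digestion of 0.1/0.025 U/µL. There was 1 library per condition, so that single conditions cannot be tested against each other, and the study describes partial recognition of the paralog IGF2BP2 by the antibody. RNA was recovered by electroelution for RNase I 0.05/0.05 and RNase T1 1/1 and from crushed gel for the others, so that gel extraction and RNase concentration cannot be told apart. The cluster reads carried 5 of 8 epithelial and intestinal markers (10 to 395 reads in all per library, with KRT20, VIL1 and LGALS4 at 0), and every listed leukocyte, erythroid, fibroblast and endothelial marker was at 0.

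The 30 bases below were taken around the bases shared by the most libraries at 6 sites with a 5′UTR cluster in all 5 libraries. They are read 5′ to 3′ on the mRNA strand of GRCh38 and are shown because these sites recurred whatever the RNase. The shared bases numbered 19, 34, 21, 23, 39 and 23 in the order below. They were common to all 5 libraries, except at PNRC1, where 4 libraries shared them. Where fewer than 30 bases were shared, the outer bases were in fewer libraries. Capitals mark CATT, CATA or CAGT, the first and last of which are the DNA letters of the tetramers the study discusses for RNase T1 and RNase I.
HSP90AB1, chr6:44247168-44247197, plus strand: tattacgtataatccttttcttttcaaggt
ACTG1, chr17:81512762-81512791, minus strand: ccgctgccagctctcgcactctgttcttcc
ID1, chr20:31605326-31605355, plus strand: ttcgggcttccacctCATTtttttcgcttt
GAPDH, chr12:6534537-6534566, plus strand: gaCAGTcagccgcatcttcttttgcgtcgc
PNRC1, chr6:89080824-89080853, plus strand: accctatcttcactggcttCATTcaccttc
ODC1, chr2:10445159-10445188, minus strand: atatttctttcaattccatctcttagtttt
Only the RNA strand was searched, and the stretches of HSP90AB1, ACTG1 and ODC1 held none of the 3 tetramers. The last bases of the HSP90AB1 stretch lie past the annotated exon's end, where a cluster of RNase I 0.05/0.05 ran on.

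The 5′UTR clusters were a small share of every library. RNase I 0.05/0.05 had 454 of them (0.499% of its 90999 clusters, 95% Wilson interval 0.455% to 0.547%) with 6641 reads. RNase I 0.1/0.025 had 155 (0.357%, 0.305% to 0.418%) with 2146 reads, and RNase I 0.05/0.025 had 148 (0.402%, 0.343% to 0.472%) with 1810 reads. RNase T1 1/1 had 184 (0.307%, 0.266% to 0.355%) with 2501 reads and RNase T1 0.25/0.25 had 34 (0.251%, 0.179% to 0.350%) with 319 reads. The 3 RNase I shares were above both RNase T1 shares, and the intervals of both RNase T1 libraries overlapped those of RNase I 0.1/0.025 and 0.05/0.025. The intervals cover counting error only. None of the 25 IgG clusters was in a 5′UTR, which allows a share of up to 12% of clusters, so that a share as low as that of the IGF2BP3 libraries was not detectable at this depth.

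The median 5′UTR cluster was 49, 48 and 44 nt long in RNase I 0.05/0.05, 0.1/0.025 and 0.05/0.025 and 31 nt in both RNase T1 libraries, and held 7, 9, 8, 8 and 7 reads in the same order of libraries. Compared with CDS clusters, 5′UTR clusters were shorter in all 5 libraries (mean difference of the medians -5.0 nt ± 2.74, SD over 5 libraries). The rule left out clusters that reached a CDS, which limits the length of a 5′UTR cluster. Its part in this difference was not tested. Reads per cluster showed no common direction, with 2 libraries higher, 2 lower and 1 equal (mean difference of the median log2 count 0.04 ± 0.24). Conversion events per read differed from CDS clusters by -0.0297 ± 0.0204, lower in 4 libraries and equal in RNase T1 0.25/0.25.

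The study defined a target by a level over 10 CPM together with over 0.5 conversions of T to C for each read. Here CPM was taken relative to the sum of cluster reads of the library, a denominator chosen for this description. In RNase I 0.05/0.05, 49 of 454 5′UTR clusters met both (10.8%), against 17.6% of all clusters of that library. In RNase I 0.1/0.025 and 0.05/0.025 the shares were 34.8% and 36.5% against 39.1% and 45.7%, and in RNase T1 1/1 and 0.25/0.25 they were 18.5% and 55.9% against 21.3% and 59.3%. The 5′UTR clusters were thus below the background in each library, and the order of the libraries followed the number of reads that 10 CPM stands for, from 1.82 reads in RNase T1 0.25/0.25 to 23.6 in RNase I 0.05/0.05. Compared with 3′UTR clusters the share was lower in all 5 libraries (mean difference -6.47 percentage points ± 3.08). Compared with CDS clusters it was lower in 4 of 5 (-1.96 ± 2.45, exact sign-flip permutation p = 0.1875), and this value was -7.15 with at least 10 reads per cluster, -6.15 over 5 CPM and -1.06 over 20 CPM. With 5 libraries the smallest two-sided p of this exact permutation test is 0.0625, the value of every comparison below in which all 5 libraries moved one way, and 0.0903 is the smallest value after Benjamini-Hochberg adjustment over the 26 comparisons made, so that no comparison over the libraries could pass 0.05.

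The 975 clusters merged into 569 sites. Of these, 382 (67.1%) came from 1 library, 275 of them from RNase I 0.05/0.05 alone, while 94 were in 2 libraries, 43 in 3, 40 in 4 and 10 in all 5. In RNase I 0.05/0.05, 42.1% of the 5′UTR clusters were overlapped by a cluster of another library, against 58.2% of all its clusters. For RNase I 0.1/0.025, RNase I 0.05/0.025, RNase T1 1/1 and RNase T1 0.25/0.25 the shares were 89.7%, 89.9%, 75.5% and 97.1%, against 94.1%, 95.3%, 75.4% and 99.1%. Overlap was lower than for CDS clusters in all 5 libraries (-3.04 percentage points ± 1.20), but among clusters of at least 10 reads the difference was -0.805 (exact permutation p = 0.5). A site without a 5′UTR cluster in a library was not always empty there. In 44 of 408 such cases (10.8%, over sites of 2 or more libraries) a cluster that the rule left out overlapped it.

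C6orf62, a gene of little known function, had the most reads. Its canonical 5′UTR of 486 nt was covered by the clusters of the libraries together from the cap to 54 nt before the start codon, at chr6:24718723-24719166, with 297, 100 and 121 reads in RNase I 0.05/0.05, 0.1/0.025 and 0.05/0.025, whereas RNase T1 1/1 and 0.25/0.25 had 139 and 13. The second site, at chr6:24719173-24719509, lay just upstream on the 5′UTR of other transcripts of the gene, with 272, 111, 107, 98 and 29 reads. At 71.3 to 180.4 CPM and 84.7 to 159.5 CPM both sites were high in every library, and 5′UTR clusters made up 30.4%, 22.9%, 28.1%, 29.2% and 14.1% of the cluster reads of the gene.

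HSP90AB1, the constitutive cytosolic HSP90 chaperone, had its whole 95-nt 5′UTR covered by the clusters of the 5 libraries together, with 109, 35, 41, 65 and 16 reads, or 46.1, 43.6, 61.1, 56.2 and 87.7 CPM. Conversion events per read were 0.706, 0.771 and 0.707 with RNase I and 0.400 and 0.438 with RNase T1, so that the RNase T1 clusters did not meet the target criteria although their CPM were as high. ACTG1, which encodes cytoplasmic gamma-actin, had 67, 30, 20, 15 and 11 reads in clusters that together ran from the cap to 8 nt before the start codon, and these were 1.61% to 3.15% of its reads. ID1, an inhibitor of basic helix-loop-helix transcription factors, had 64, 23, 25, 9 and 5 reads, and in both RNase T1 libraries the 5′UTR held every cluster read of the gene. In the RNase I libraries the share in ID1 was 32.0%, 59.0% and 67.6%.

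GAPDH, the glycolytic dehydrogenase, had 37, 16, 22, 8 and 6 reads, and its clusters started between nucleotides 1 and 25 of a 76-nt 5′UTR. PNRC1, a nuclear receptor coregulator, had 50, 13, 10, 30 and 4 reads at 14.9 to 25.9 CPM, the narrowest range of these sites, and met the target criteria in no library since its conversion events did not exceed 0.5 per read. ODC1, the first enzyme of polyamine synthesis, had 8, 9, 13, 25 and 7 reads near the start codon of a 334-nt 5′UTR. It was the lowest of the 10 sites by mean CPM, and RNase T1 1/1 and 0.25/0.25 (21.6 and 38.4 CPM) were above the RNase I libraries (3.39, 11.2 and 19.4). The other 2 of the 10 sites were on 5′UTRs annotated only for non-canonical transcripts. One, at chr11:5505432-5505655 and with 159, 35, 21, 20 and 5 reads, is annotated to the embryonic and fetal globins HBE1 and HBG2, while the erythroid markers HBB, HBA1, HBA2 and ALAS2 were at 0 reads in every library. The other, at chr7:101237943-101238252, is annotated to the tight junction gene CLDN15, with 63, 41, 21, 12 and 6 reads, and 5′UTR clusters held 88.9% to 100.0% of the reads of CLDN15. HBE1 also had a 5′UTR site in 4 libraries, at chr11:5269980-5270138, with 129, 29, 25, 22 and 0 reads. The exonic cluster reads of HBE1 were 504, 61, 80, 68 and 5, of which 95, 0, 13, 18 and 0 were in CDS clusters.

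**Figure D1:**
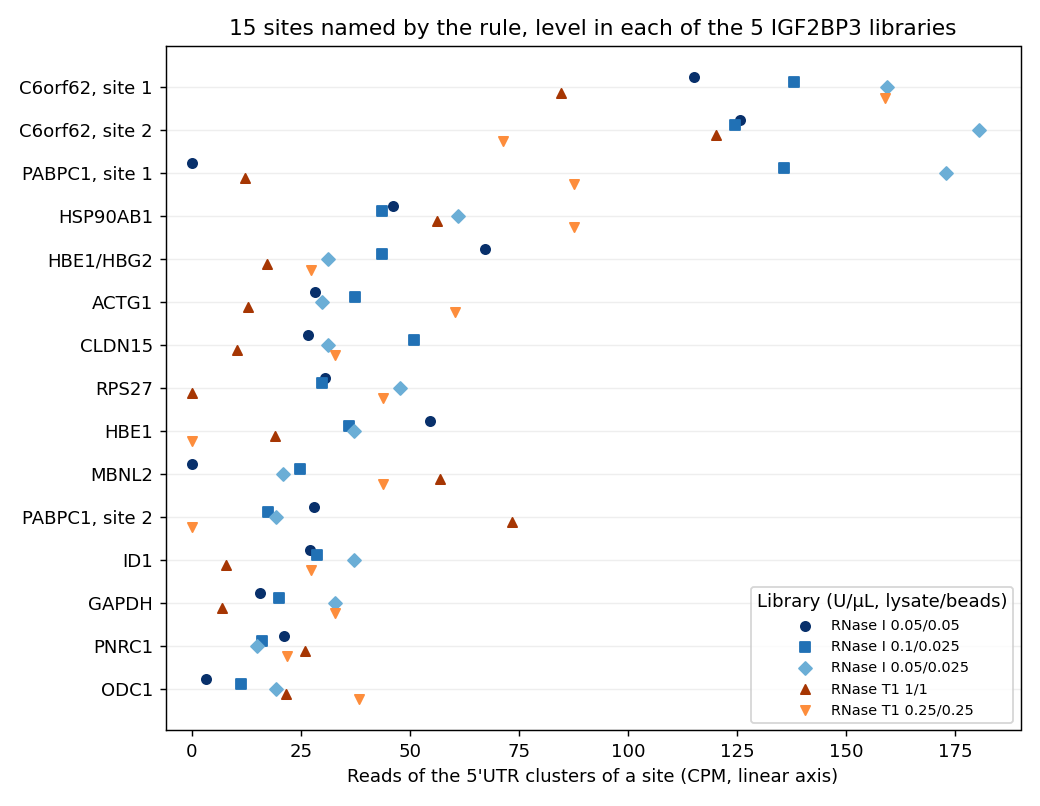
Level of 15 named sites (the 10 sites found in all 5 libraries and the 5 of highest mean CPM found in 4), in CPM on a linear axis, with 1 point per library. Points at 0 mark a library without a 5′UTR cluster at the site. The 2 sites of C6orf62 lie between 71.3 and 180.4 CPM in every library, while most of the other sites lie lower.

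Sites were also sorted by the RNase with which they were called. The RNase I libraries had 454, 155 and 148 5′UTR clusters and the RNase T1 libraries 184 and 34. The part of these numbers in the counts that follow was not tested, and the same counts over all clusters are not given here. There were 26 sites in all 3 RNase I libraries and neither RNase T1 library, and 5 in both RNase T1 libraries and no RNase I library. A cluster of an RNase I library that the rule left out overlapped 4 of those 5, and one of an RNase T1 library overlapped 1 of the 26. Sequences are shown for the 2 RNase T1 sites of highest mean CPM and for 3 of the 5 highest RNase I sites, leaving out MATR3 and HSPA8, which overlap non-coding genes.
PTMA, RNase I, chr2:231708552-231708581, plus strand: ctttgCATTgttcctcatccgcctccttgc
RPSA, RNase I, chr3:39406724-39406753, plus strand: tccgtgctacctgcagaggggtcCATAcgg
AMN1, RNase I, chr12:31714927-31714956, minus strand: accagatgctactggacttgaatggttaat
COX7C, RNase T1, chr5:86618016-86618045, plus strand: cctCATTctctgcgcctttcgcagagcttc
SLC38A1, RNase T1, chr12:46239844-46239873, minus strand: ggtatctacttctaaatacactcagaacag
PTMA, which encodes prothymosin alpha, had 57, 27 and 24 reads with RNase I. COX7C, a subunit of cytochrome c oxidase, had 58 and 19 reads with RNase T1, and RNase I clusters of 217, 46 and 51 reads that ran on into the CDS covered the same bases. SLC38A1, a glutamine transporter, had 15 and 12 reads with RNase T1 and a cluster of 23 reads outside the rule in RNase I 0.05/0.05. The MATR3 and HSPA8 sites, the 2 highest of the RNase I kind with 55, 39 and 27 and with 42, 31 and 37 reads, overlapped SNHG4, a lncRNA, and SNORD14D, a small nucleolar RNA, so that the read source cannot be told apart there. At MATR3, RNase T1 1/1 also had 27 reads (23.3 CPM) in a cluster outside the rule.

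Genes were then counted. A 5′UTR cluster was present in 373 of 9342 protein-coding genes with an exonic cluster (3.99%), with 294, 125, 115, 123 and 30 genes in RNase I 0.05/0.05, 0.1/0.025, 0.05/0.025 and RNase T1 1/1 and 0.25/0.25. It was present in 2 or more libraries in 163 genes and in all 5 in 11. With the target criteria, 90 genes had a 5′UTR cluster in at least 1 library, 47 in at least 2 and 30 in at least 3. The matching counts of genes for clusters of all regions are not given here, so that these counts cannot be called many or few. By cluster, the share meeting the criteria was below that of all clusters in each library, though near it in some, as given above. In the median gene, 5′UTR clusters held 3.66%, 6.71%, 7.14%, 16.5% and 16.4% of the cluster reads. Genes whose only clusters were in the 5′UTR numbered 12, 12, 13, 16 and 6.

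Ribosomal protein mRNAs were the largest listed group. Of 79 cytosolic ribosomal protein genes, 76 had an exonic cluster and 44 of these had a 5′UTR cluster (57.9%, against 3.99% of all genes), 33 in at least 2 libraries and 8 in 4 or more. By library the shares were 42.1%, 35.6%, 34.7%, 23.0% and 9.62%, against 3.36%, 1.95%, 1.9%, 1.63% and 0.898% of all genes. The ribosomal protein genes also had more reads in exonic clusters (median 626 summed over libraries, against 127 for all genes) and shorter canonical 5′UTRs (median 41 against 139 nt), and the part of either in this share was not tested. Of the ribosomal protein genes with a 5′UTR cluster in a library, 8 of 32, 12 of 26, 12 of 26, 0 of 14 and 2 of 5 met the target criteria there, against 42 of 294, 46 of 125, 47 of 115, 25 of 123 and 19 of 30 of all genes with one. As shares these were higher than for all genes in the RNase I libraries and lower in both RNase T1 libraries. The counts are small, and all genes include the ribosomal protein genes. Neither this difference nor the part of read depth in it was tested.

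Most of their clusters began near the cap. Of 101 clusters on canonical 5′UTRs of ribosomal protein genes, 88 (87.1%) started within 20 nt of the annotated cap, with a median start at nucleotide 1, against 122 of 685 clusters of other genes (17.8%), with a median start at nucleotide 223. The difference was seen in every library, with 93.8%, 77.8%, 87.5%, 92.3% and 80.0% of ribosomal protein clusters against 19.1%, 20.8%, 23.7%, 8.0% and 13.6% of the others. The median 5′UTR under these clusters was 53 nt against 456 nt, so that a cluster of median length (39 nt) filled most of a ribosomal protein leader. The rule left out clusters that touch the CDS, so that such a cluster could only start near the cap. The part of leader length and of the rule in the contrast with other genes was not tested. The cap-proximal bases of 4 of them are shown because of the pyrimidine runs they hold.
RPS27, chr1:153990761-153990790, plus strand: tcctttccggcggtgacgacctacgcacac
RPL38, chr17:74203684-74203713, plus strand: cgtccttttccccggttgctgcttgctgtg
RPL15, chr3:23917146-23917175, plus strand: ttcctttccgtctggcggcagccatcaggt
RPL26, chr17:8383164-8383193, minus strand: ctcttcccttttgcggccatcaccgaagcg
RPS27 had 72, 24, 32, 0 and 8 reads in the 5 libraries, and in RNase I 0.05/0.025 and RNase T1 0.25/0.25 these were all cluster reads of the gene. RPL38 had 75, 29, 26, 5 and 0 reads and met the target criteria in all 3 RNase I libraries, as did RPL29 (73, 15, 17, 19 and 0), RPL15 (57, 10, 19, 0 and 0) and RPL28 (46, 12, 15, 0 and 0). RPL26 had 12, 6, 8, 6 and 0 reads with up to 1.5 conversion events per read. The first 10 nt of the canonical 5′UTR were 81.8% pyrimidine in the 44 ribosomal protein genes with a 5′UTR cluster and 79.7% in the 35 without, against 55.7% in 329 other genes with a 5′UTR cluster and 49.6% over 19076 canonical 5′UTRs.

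**Figure D2:**
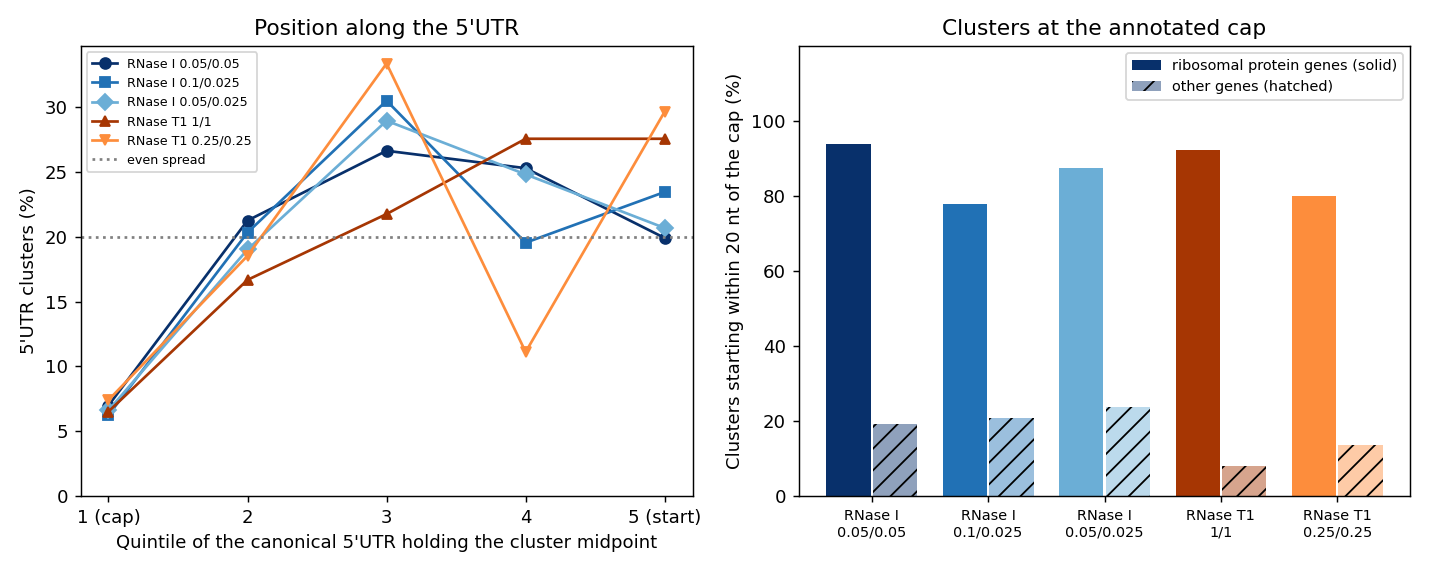
Left, share of 5′UTR clusters by the quintile of the canonical 5′UTR length that holds the cluster midpoint, in percent, per library, with the dotted line at an even spread. Right, percent of clusters starting within 20 nt of the annotated cap in ribosomal protein genes (solid bars) and other genes (hatched bars) per library. The quintile at the cap holds the fewest clusters over all libraries (53 of 786), and the solid bars reach 77.8% to 93.8%. The median 5′UTR under a cluster was 53 nt in ribosomal protein genes and 456 nt in other genes.

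Along canonical 5′UTRs the clusters lay more often on the start codon side of the 5′UTR's middle. This side held the midpoint of 57.5%, 61.7%, 57.0%, 66.7% and 63.0% of the clusters, or 471 of 786 over all libraries (59.9%), and the excess over 50% was 11.2 percentage points ± 4.01 (SD, 5 of 5 libraries, exact sign-flip permutation p = 0.0625). Among clusters of at least 10 reads the excess was 7.51 (exact permutation p = 0.25). By quintiles from the cap to the start codon there were 53, 156, 212, 190 and 175 clusters. The midpoint of a cluster cannot lie at the cap itself unless the cluster extends upstream, and clusters that reached the CDS were left out by the rule. Both could lower the counts at the ends, and their part in the quintile counts was not tested. The canonical 5′UTR under a cluster had a median length of 357, 284, 207, 486 and 144 nt by library and 334 nt over all clusters, against 136 nt over all 19224 canonical 5′UTRs. Counted per gene, the median was 49 nt in ribosomal protein genes with a cluster and 221 nt in other genes with one.

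Translation factors other than ribosomal proteins had a 5′UTR cluster in 9 of 48 genes with an exonic cluster (18.8%, against 3.99% of all genes), 6 of them in at least 2 libraries. Their median was 992.5 exonic cluster reads per gene, against 127 for all genes, and the part of read depth in this share was not tested. EIF1, a factor of start codon selection, had 36, 15 and 16 reads in clusters that started between nucleotides 1 and 14 with RNase I, met the target criteria in all 3 and had no 5′UTR cluster at this site with RNase T1. EEF1B2, a subunit of the exchange factor of elongation factor 1A, had 14, 10, 4, 6 and 0 reads and met them in none. PABPC1, the cytoplasmic poly(A)-binding protein, whose 5′UTR is known for an A-rich autoregulatory tract, had 5′UTR clusters in all 5 libraries. Its site at chr8:100721681-100721770 held 109 and 116 reads in RNase I 0.1/0.025 and 0.05/0.025, and with RNase T1 1/1 and 0.25/0.25 it held 14 and 16, and in RNase I 0.05/0.05 a cluster of 619 reads that ran into the CDS took its place. A second site nearer the cap, at chr8:100721840-100721974, held 66, 14, 13, 85 and 0 reads, and there RNase T1 1/1 was the highest, at 73.5 CPM against 17.4 to 27.9 with RNase I. EIF1B, EIF3E and PABPC4 had 5′UTR clusters in 3, 2 and 2 libraries, and EEF2, EIF3A and EIF5 in 1.

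Of 10 stress-response mRNAs with upstream open reading frames that had an exonic cluster, 2 had a 5′UTR cluster (20.0%, against 3.99% of all genes). ATF4, the transcription factor of the integrated stress response, had 38, 17, 18, 0 and 5 reads at a site whose clusters started between nucleotides 3 and 94 of its 282-nt 5′UTR and met the target criteria in all 4 libraries that had the site, with 0.706 to 0.800 conversion events per read. Further down, clusters of 38, 40 and 45 reads in the RNase I libraries on the ATF4 5′UTR also touched annotated coding sequence and were left out by the rule, next to a 5′UTR cluster of 25 reads in RNase I 0.05/0.05. EIF5 had 1 cluster of 6 reads in RNase I 0.05/0.05.

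Of 4 mRNAs listed for an iron-responsive element in the 5′UTR that had an exonic cluster, only FTH1, the ferritin heavy chain, had 5′UTR clusters (25.0%, against 3.99% of all genes). The element is a hairpin bound by the iron regulatory proteins, with CAGTGN in its loop. The loop match and both neighbouring stretches of the FTH1 5′UTR are shown with the match in capitals, all on the minus strand.
FTH1 toward the cap, chr11:61967597-61967626: ttcttcgccgagagtcgtcggggtttcctg
FTH1 loop match, chr11:61967573-61967602: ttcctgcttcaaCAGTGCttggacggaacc
FTH1 toward the start codon, chr11:61967497-61967526: gtcacctcttcaccgcaccctcggactgcc
The match began at nucleotide 45 of the 209-nt 5′UTR and no cluster of any library, within the rule or not, covered it. The site on the cap side had 21 reads in RNase I 0.05/0.05. RNase T1 1/1 had 11, and conversion events per read were 0.286 and 0.273. The site on the other side, from nucleotide 71, had 123 reads in RNase I 0.1/0.025, 31 in RNase T1 1/1 and 30 in RNase T1 0.25/0.25 and met the target criteria in each. In RNase I 0.05/0.05 and 0.05/0.025 clusters of 444 and 135 reads that reached the CDS covered that site. CAGTGN occurred in 3750 of 19076 canonical 5′UTRs of at least 10 nt (19.7%), so that the letters alone do not mark the element.

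Among 12 growth-control mRNAs with long or structured 5′UTRs and an exonic cluster, 2 had 5′UTR clusters (16.7%, against 3.99% of all genes), and both encode enzymes of polyamine synthesis. These were ODC1, described above, and AMD1, the decarboxylase that makes the aminopropyl donor, with 32, 9, 5, 0 and 4 reads at a site on the cap side, of which 6 reads of RNase I 0.05/0.05 were in the cluster at the cap itself, and 14 and 8 reads at a second site in RNase I 0.05/0.05 and 0.1/0.025. Of 9 mRNAs linked to IGF2BPs in the literature with an exonic cluster, 4 had a 5′UTR cluster (44.4%, against 3.99% of all genes). Their median was 2883 exonic cluster reads per gene, against 127 for all genes, and it was 992.5, 320, 1238 and 1017 for the translation factor, stress-response, iron-responsive and growth-control lists. The part of read depth in these shares was not tested. ACTB, which encodes beta-actin, had 39, 10 and 11 reads with RNase I and none with RNase T1, and HMGA1, an architectural chromatin protein, had 22, 16, 5, 5 and 0 reads at the site nearest its cap, in clusters that started between nucleotides 7 and 51. CD44, a hyaluronan receptor, had 9 reads in RNase I 0.05/0.025 and 5 in RNase I 0.1/0.025 at different sites, and HMGA2 had 5 reads in RNase I 0.05/0.05 out of 2742 for the gene. Of 29 of the mRNAs that the study names, HMGA2 alone had a 5′UTR cluster (3.45%, against 3.99% of all genes). The median of these 29 was 409 exonic cluster reads per gene summed over libraries.

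**Figure D3:**
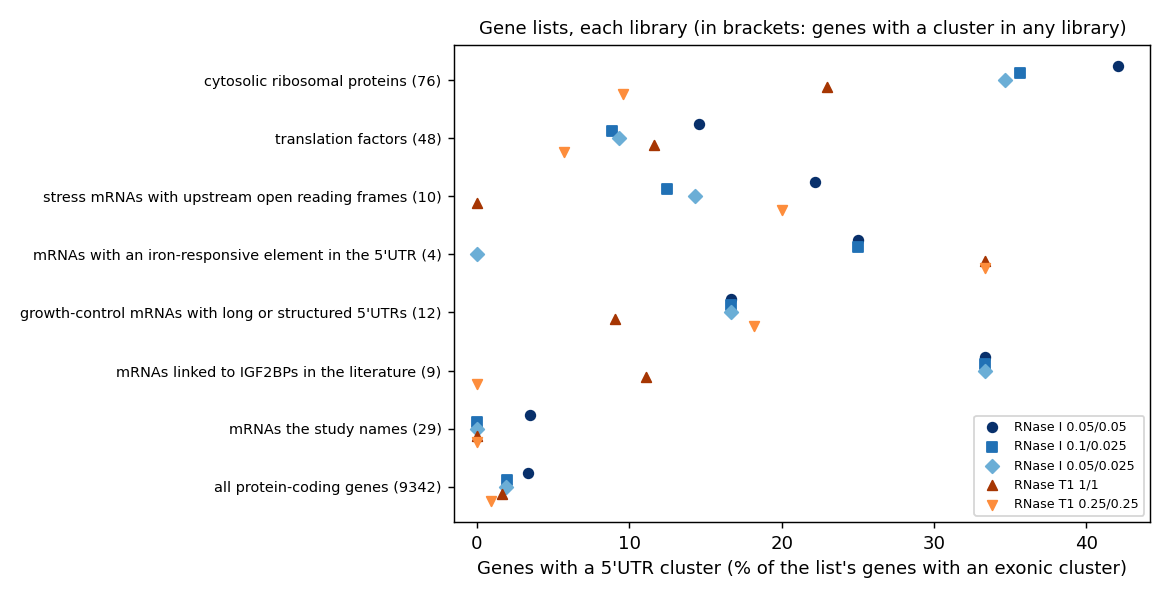
Percent of the genes of each list with an exonic cluster in a library that had a 5′UTR cluster there, with 1 point per library and all protein-coding genes in the lowest row. Ribosomal protein genes reach 9.62% to 42.1%, while all protein-coding genes lie between 0.898% and 3.36%. The lists of 4 to 12 genes move in large steps.

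The windows of 41 nt centered on the mode of each cluster were compared with those of CDS and 3′UTR clusters. The mode was at an end of the cluster in 627 of 975 5′UTR clusters (64.3%). The windows were cut from the genome, so that they can hold bases outside the cluster and outside the exon. G and C made up 53.7%, 52.6%, 51.1%, 45.7% and 50.7% of the 5′UTR windows in RNase I 0.05/0.05, 0.1/0.025, 0.05/0.025 and RNase T1 1/1 and 0.25/0.25, against 49.1%, 48.5%, 48.6%, 45.5% and 47.1% in CDS windows and 36.8% to 41.1% in 3′UTR windows. The difference was 3.00 percentage points ± 1.73 to CDS and 11.4 ± 1.69 to 3′UTR clusters, each with all 5 libraries higher. The difference to CDS fell to 1.86 over the whole cluster sequence and 1.98 without ribosomal protein genes (exact permutation p = 0.125 each) and was 4.51 with at least 10 reads per cluster. By library it was least in RNase T1 1/1, at 0.21 percentage points. T, the base that is crosslinked, made up 25.8%, 26.9%, 28.4%, 31.8% and 30% of the 5′UTR windows, 3.00 percentage points ± 1.38 more than in CDS windows and 4.28 ± 0.982 fewer than in 3′UTR windows, in all 5 libraries each. The windows at 5′UTR clusters thus had more G and C and more T than those at CDS clusters, at the expense of A.

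The tetramers were less frequent in 5′UTR windows. CAGT was present in 16.7%, 18.1%, 14.9%, 15.8% and 14.7% of them, against 20.5% to 23.7% of CDS windows, a difference of -6.16 percentage points ± 1.68 with all 5 libraries lower, and of -3.17 in 21-nt windows (exact permutation p = 0.125). CATT was present in 15.4%, 14.8%, 15.5%, 25.5% and 17.7% of them, which was -9.42 ± 3.52 relative to 3′UTR windows with all 5 libraries lower, -4.65 in 21-nt windows and -16.7 over the cluster sequence. Relative to CDS windows CATT was lower in 4 libraries and 0.67 percentage points higher in RNase T1 1/1 (-2.76 ± 2.95, exact sign-flip permutation p = 0.125), and the difference was -0.765 in 21-nt windows, -4.8 over the cluster sequence, -4.45 on canonical 5′UTRs and -1.61 without RNase T1 0.25/0.25. RNase T1 1/1 had the most CATT of the 5 libraries. ATG was 16.2 ± 4.61 percentage points less frequent than in CDS windows, lower in all 5 libraries.

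**Figure D4:**
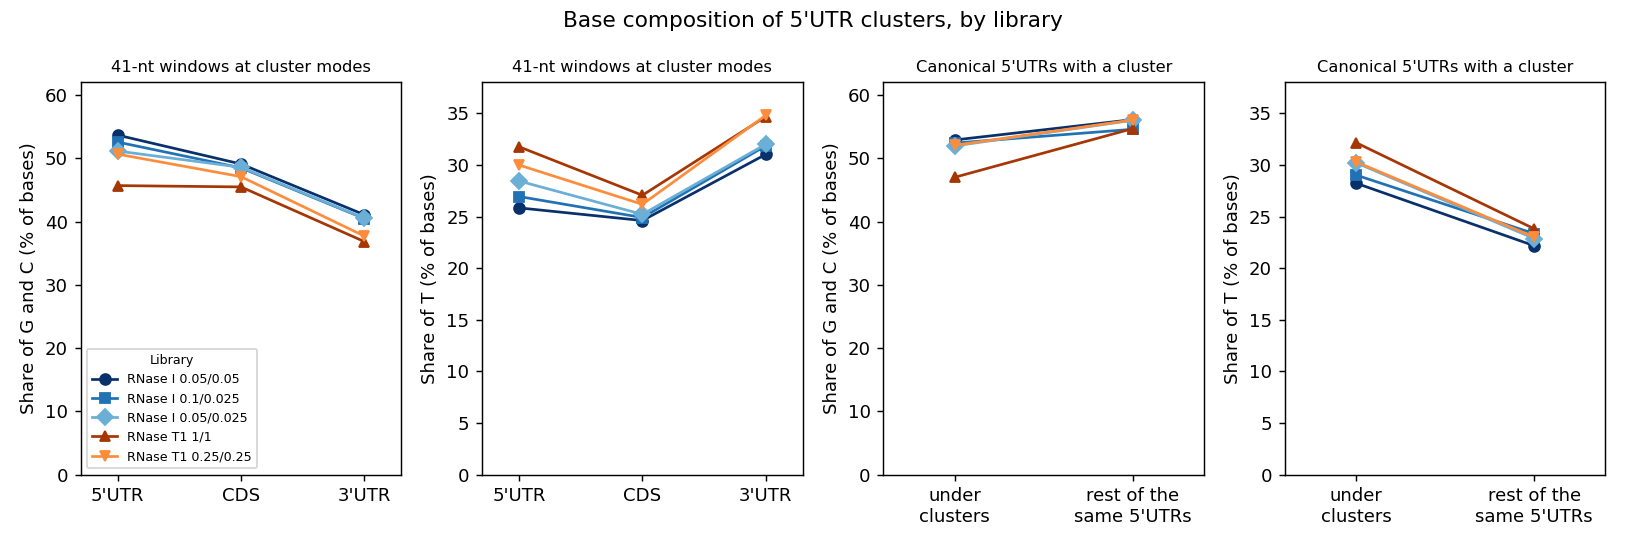
Percent of bases that were G or C (panels 1 and 3) and T (panels 2 and 4), with 1 line per library. The first pair of panels compares 41-nt windows at the modes of 5′UTR, CDS and 3′UTR clusters, and the second pair compares bases under 5′UTR clusters with the rest of the same canonical 5′UTRs. In every library T was higher under the clusters than in the rest and G and C lower.

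The bases under the clusters were also compared with the rest of the same canonical 5′UTRs, 258, 109, 99, 101 and 26 of them in the 5 libraries. The rest is every base outside the 5′UTR clusters of that library, including bases under clusters that the rule left out. T was 28.2%, 29.0%, 30.2%, 32.2% and 30.3% under clusters and 22.2%, 23.3%, 22.9%, 23.8% and 23.0% in the rest. G and C were 52.9%, 52.4%, 52.0%, 47.0% and 52.1% under clusters and 56.1%, 54.6%, 56.0%, 54.7% and 56.1% in the rest. PAR-CLIP records crosslinks at T, and its part in the T difference was not tested. CATT occurred 5.90, 6.03, 4.97 and 7.32 times per kb under clusters against 2.76, 3.37, 3.48 and 3.57 in the rest in the 3 RNase I libraries and RNase T1 1/1, and 3.42 against 4.16 times in RNase T1 0.25/0.25, which had 878 bases under clusters. CAGT occurred 5.40 against 3.10 times per kb in RNase I 0.05/0.05, and the values lay closer in RNase I 0.1/0.025 (3.47 against 3.34), RNase I 0.05/0.025 (4.15 against 3.29) and RNase T1 0.25/0.25 (3.42 against 3.20), while RNase T1 1/1 was lower under clusters (2.37 against 3.40). ATG, the upstream start codon, was sparser under clusters in each library, with 6.0, 4.52, 4.48, 4.75 and 2.28 per kb against 8.61, 7.86, 8.46, 7.63 and 7.05. The rule left out clusters touching a CDS of any transcript, so that start codons annotated in other transcripts could fall only in the rest. The part of this in the ATG difference was not tested. Over all canonical 5′UTRs G and C were 62.7% and T was 18.5%. In 5′UTRs with a 5′UTR cluster the rest was thus also poorer in G and C than 5′UTRs at large. These densities are descriptions of bases within the same mRNAs and were not tested.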

How the data were processed

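The authors deduplicated reads by their unique molecular identifiers with UMI-tools 1.1.1, used Trimmomatic 0.30 for trimming and Bowtie 0.12.7 for the alignment to GRCh38, and called clusters per library with PARalyzer, with tool versions from the submitters' processing notes. Each deposited cluster has a read count and a count of T-to-C conversions, neither of them normalized. The authors also deposited a mode score as a fraction, not used here, and the mode location. All 244645 cluster sequences, IgG included, equalled the genome at their position.

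Here, clusters were set against GENCODE release 44 with Python 3.11.15, pandas 2.3.3, pysam 0.24.0 and bedtools 2.31.1. Cluster reads were 182448 to 2362467 per IGF2BP3 library and 324 for IgG, and are not library sizes. CPM are relative to these sums. Overlapping clusters of different libraries were merged into sites. Differences per library were tested by an exact two-sided sign-flip permutation with scipy 1.17.1, which was tested on simulated data. Clusters of 1 library are not replicates. The members, gene lists, tests and alternatives were chosen with earlier results of these data known. Sites were named by rule: the 15 of highest mean CPM among those in 5 and then 4 libraries, the top 5 found with RNase I or RNase T1 alone, and sites of listed genes. Of these, those that bear on a comparison are described. Printed sequences are GRCh38.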

Additional observations from a re-analysis of the deposited data

How the results depend on the processing

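Of 172 recomputed values, 161 were not reversed in direction or, for a count, stayed within 1.5 times. For the tested differences only a reversal could count as a change, since no setting could bring the p-value below 0.05. The number of 5′UTR clusters was 390 with at least 10 reads per cluster and 521 to 941 when each library was left out in turn, the lowest without RNase I 0.05/0.05. Sites in all libraries numbered 3 with at least 10 reads per cluster and 11 to 42 when each library was left out in turn, the highest without RNase T1 0.25/0.25, which had 34 of the clusters. Genes meeting the target criteria in at least 2 libraries numbered 86 over 5 CPM, 23 over 20 CPM and 10 over 0.75 conversion events per read, against 47. The target share relative to CDS clusters turned from -1.96 percentage points to 0.958 with the minimum at 0.25 and 0.194 with it at 0.75 conversion events per read, and that relative to 3′UTR clusters turned from -6.47 to 0.824 with it at 0.75. Log2 reads per cluster relative to CDS clusters turned from 0.0386 to -0.0425 without RNase I 0.1/0.025, with a range of -0.0425 to 0.0963 over the libraries left out. The cause of these changes was not tested, apart from the thresholds themselves. Leaving out a library for the 2 counts other than sites, and leaving out ribosomal protein genes, which changed neither the position nor the base composition in direction, were chosen after seeing the data.

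Conditions could not be paired with each other because each had 1 library, so that the shared replicate number 1 pairs nothing. The tested differences between regions were paired within each library. With 4 libraries the smallest p of the exact permutation test is 0.125, so that leaving out a library says nothing about significance. The median 5′UTR cluster had 7 to 9 reads, so that most single clusters are near the lower limit of what was called (3 reads). A 5′UTR cluster that was missed at the depth of RNase T1 0.25/0.25 cannot be told apart from one that was absent.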
